A study of Gallus gallus with 20 samples.

Results

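Trimethylation of lysine 27 on histone H3 (H3K27me3) was mapped in the embryonic day 4.5 lens of the chicken (Gallus gallus), and its peaks were described across genes and chromosomes. The deposited H3K27me3 list held 22875 peaks on the assembled chromosomes of the GRCg7b build, out of 330579 in the 6 lists of the series. All of these peaks were taken, whatever their strength, and 12 more on other sequences were left out. The assay was CUT&RUN, in which an antibody holds a nuclease at its target so that the surrounding DNA is cut and released from nuclei. The H3K27me3 group comprised 3 libraries, each a pool of about 44 lenses from untreated embryos, with 100000 nuclei per reaction and the antibody diluted 1 in 50. Lists of H3K4me3, EZH2, SUZ12, JARID2 and AEBP2 peaks, each from 3 libraries of lenses of the same age, were used here only for overlap. The series also held 2 libraries of non-specific IgG, which were not used here. Each antibody had a single peak list without values per library, so no difference could be set against the spread between libraries and no test was made.

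H3K27me3 is deposited by Polycomb repressive complex 2 (PRC2), whose catalytic subunit is EZH2 and whose core includes SUZ12, while JARID2 and AEBP2 are accessory subunits. The mark is known for keeping developmental regulator genes silent in cells that do not use them, and it spreads over whole gene clusters such as the HOX clusters. H3K4me3 is a mark of active and poised promoters, and genes that carry both marks are often called bivalent. The lens is an epithelial tissue made of anterior epithelial cells and elongated fiber cells, and its identity rests on regulators such as PAX6 and on abundant crystallin proteins. In a bulk profile like this one, the mark in fewer cells and less of the mark per cell cannot be told apart.

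Peaks of H3K27me3 covered 36.7 Mb, which was 3.53% of 1040 Mb of chromosomes. Their fold, the authors' ratio of each peak over the peak caller's background, ran from 1.43 to 129 with a median of 4.09. Read depth is unknown, and the weakest peak had a −log10 q-value of 1.31. Of the peaks, 71.1% had a −log10 q-value of at least 5.

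Lens genes, among them the crystallin genes CRYAA, CRYAB and CRYBB1, the beaded filament genes BFSP1 and BFSP2 and the lens regulator FOXE3, served as a check of the tissue. All 12 genes of this list carried H3K4me3 at an end and none carried H3K27me3 at an end. Inside CRYBB1 3.62% of the gene was covered by H3K27me3, and with windows of 2.5 kb 8.33% of the list was marked. The list was chosen with earlier results of these data known, so the check is not an independent one. Markers of other cell types were read in the same way, against 26% of all protein-coding genes with H3K27me3 and 57.2% with H3K4me3. H3K27me3 was present at 4 of 5 retinal, 6 of 7 neural crest and mesenchyme, 4 of 8 endothelial, 2 of 7 blood, 1 of 5 pigment epithelium and 1 of 5 surface ectoderm markers. H3K4me3 was present at 1, 3, 1, 1, 2 and 1 of them in the same order. The blood, pigment epithelium and surface ectoderm counts for H3K27me3 were near that share. How much cells of these other types contributed to the peaks was not tested.

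A minority of the peaks touched gene ends, yet they held the largest part of the marked sequence. The gene table used here gives no strand, so a peak was placed at a gene end when it came within 1 kb of either end of a protein-coding gene. On that rule 4902 peaks (21.4%) lay at gene ends, 8741 (38.2%) inside gene bodies away from the ends, and 9232 (40.4%) outside protein-coding genes. The gene-end peaks held 16.9 Mb, or 45.9% of all covered sequence, while the windows around gene ends make up 5.77% of the chromosomes. Gene bodies held 27.2% of covered sequence on 52% of the chromosomes. Peaks outside protein-coding genes held 26.9% on 42.2%. Each peak was counted over its full width, also where it ran beyond the windows, and gene-end peaks were up to 71856 bp wide. The shares of covered sequence and of chromosomes are therefore unlike measures and give no enrichment. When genes without a protein product were counted too, 573 of the outside peaks lay at an end of such a gene and 1747 inside one. The remaining 6912 peaks lay outside every gene of the table.

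Gene-end peaks were also wider and, over all widths together, had higher folds than the rest. Their median width was 2018.5 bp, against 517 bp in gene bodies and 524 bp outside genes. Their median fold was 7.53, against 3.80 in gene bodies and 3.90 outside genes. A fold of at least 20 was reached by 1252 gene-end peaks (25.5%), by 364 gene-body peaks (4.16%) and by 297 outside peaks (3.22%). Peaks inside gene bodies and peaks outside genes thus had nearly the same distributions, as the plot of width and fold shows. Peaks of at most 600 bp made up 22.9% of gene-end peaks, 56.2% of gene-body peaks and 55.7% of outside peaks. A wide peak has more chance of reaching a window, so width and placement are not independent. Fold also rose with width, and among peaks of similar width gene-end peaks were not always the stronger ones. For peaks of at most 300 bp the median fold was 2.78 at gene ends, 3.11 in gene bodies and 3.18 outside genes. Over 600 and up to 1200 bp it was 4.16, 4.39 and 4.54 in that order. Over 5 and up to 10 kb it was 25.1, 20.2 and 18.2.

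**Figure D1:**
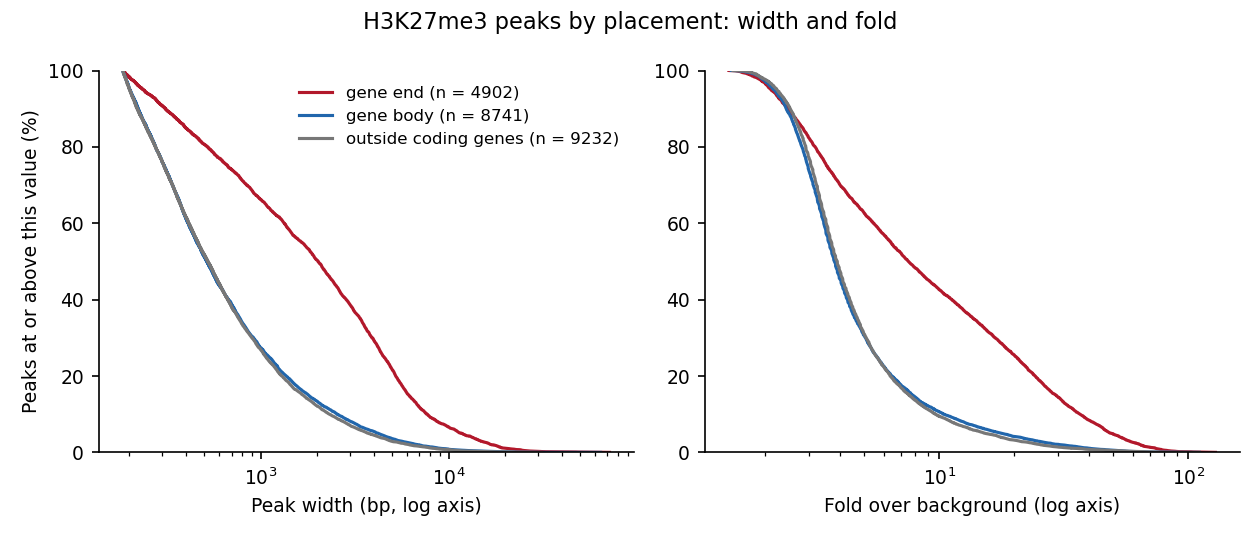
Share of H3K27me3 peaks (%) at or above a given width (left, bp, log axis) or fold over background (right, log axis), with a line for each placement relative to protein-coding genes. The gene-end line lies to the right, with a median width of 2018.5 bp, while the other 2 lines nearly coincide at medians of 517 and 524 bp.

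The broadest peaks were few but held much of the mark. Peaks wider than 10 kb numbered 465, and 325 of them touched a gene end. Together they held 20.4% of covered sequence. Only 81 peaks exceeded 20 kb and 5 exceeded 50 kb, of which 4 lay at gene ends. These are widths of called peaks, and the median gap between neighbouring peaks was 1258 bp. A marked stretch can be divided among several peaks, so counts of wide peaks depend on how peaks were called. In the tenth of the list with the highest fold, 2288 peaks with a fold of 17.2 or more, gene-end peaks made up 62.9%, gene-body peaks 20.0% and outside peaks 17.1%.

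Overlap with the enzyme differed by placement and by width. Over all H3K27me3 peaks, 30.2% overlapped an EZH2 peak, 25.7% a JARID2 peak, 24.9% an AEBP2 peak, 23% a SUZ12 peak and 8.34% an H3K4me3 peak. At gene ends 71.7% overlapped EZH2, against 21.1% in gene bodies and 16.8% outside genes. EZH2 was common at gene ends in general, at 59.3% of all protein-coding genes, against 26% with H3K27me3. Whether the overlap at gene ends exceeds what this share would give was not tested. The placements stayed apart within classes of similar width. Among peaks over 600 and up to 1200 bp, EZH2 overlap was 55.1% at gene ends, 19.9% in gene bodies and 15.1% outside genes. Among peaks over 5 and up to 10 kb it was 97.8%, 69.0% and 61.8% in that order. JARID2 followed the same order, from 14.6% of gene-end peaks of at most 300 bp to 98.2% of those over 10 kb.

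For H3K4me3 the overlap was not highest in the widest peaks. It overlapped 29.4% of gene-end peaks, 4.59% of gene-body peaks and 0.715% of outside peaks. At gene ends its share was highest, 38.2%, for peaks over 1200 and up to 2500 bp, and it was 20.3% for peaks over 10 kb. The narrowest class, at most 300 bp, had 18.1%. The lists differ in length and antibody dilution, so shares of different antibodies are not amounts of binding.

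**Figure D2:**
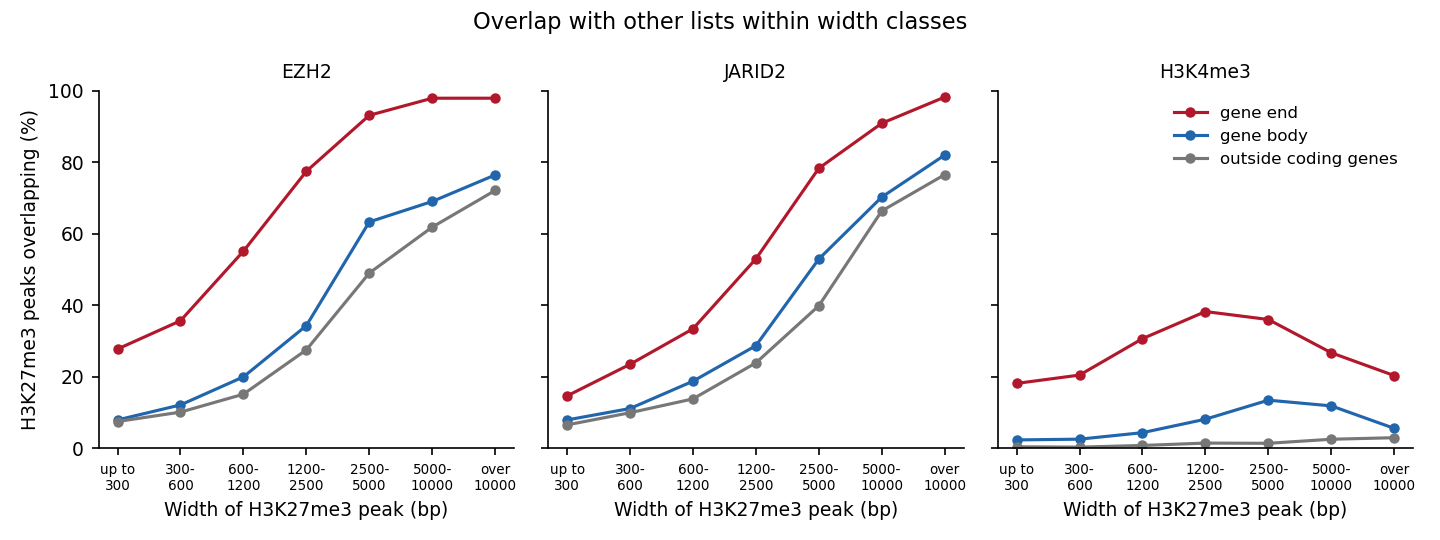
Share of H3K27me3 peaks (%) that overlap an EZH2, JARID2 or H3K4me3 peak by at least 1 bp, by width of the H3K27me3 peak (bp) and placement. At gene ends the EZH2 share runs from 27.7% for peaks of at most 300 bp to 97.8% for peaks over 10 kb, whereas the H3K4me3 share peaks at 38.2% in the middle class.

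Among chromosomes with at least 20 peaks, the small ones, which are rich in genes, carried the mark most densely. On the 6 chromosomes over 50 Mb, including Z, the peaks numbered 15.2 per Mb and covered 2.32% of the sequence. The 6 chromosomes of 20 to 50 Mb had 29.1 per Mb and 4.68% covered. The 17 smaller chromosomes with at least 20 peaks had 46.7 per Mb and 8.02% covered. Chromosome 27, which holds the HOXB cluster, had the highest covered share at 15.2%. Chromosome 24 had the most peaks per Mb, 78.0, and 13.4% of it was covered. Chromosome 1 had the lowest values among chromosomes with at least 20 peaks, 12.2 per Mb and 1.80%.

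The same gradient was much flatter when set against genes. Peaks per protein-coding gene were 1.27 on the chromosomes over 50 Mb, 1.64 on those of 20 to 50 Mb and 1.36 on the 17 smaller ones. The share of genes marked at an end was 24.8%, 28.9% and 31.1%, and H3K4me3 peaks per Mb were 7.30, 11.8 and 24.1, each in the same order. Over these 29 chromosomes the covered share correlated with the logarithm of chromosome length (Pearson r = -0.875, Spearman rho = -0.935) and with gene density (r = 0.736, rho = 0.921). These are descriptions over chromosomes of the same libraries, which also differ in base composition. Another 12 chromosomes, W, 16, 29 to 33 and 35 to 39, had fewer than 20 peaks each and 50 in all over 21.4 Mb, which is 2.33 per Mb at 51.7 coding genes per Mb. Of their 1108 genes 25 were marked with H3K27me3 (2.26%), and 20.6% had H3K4me3. How well reads can be placed on these sequences was not tested.

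**Figure D3:**
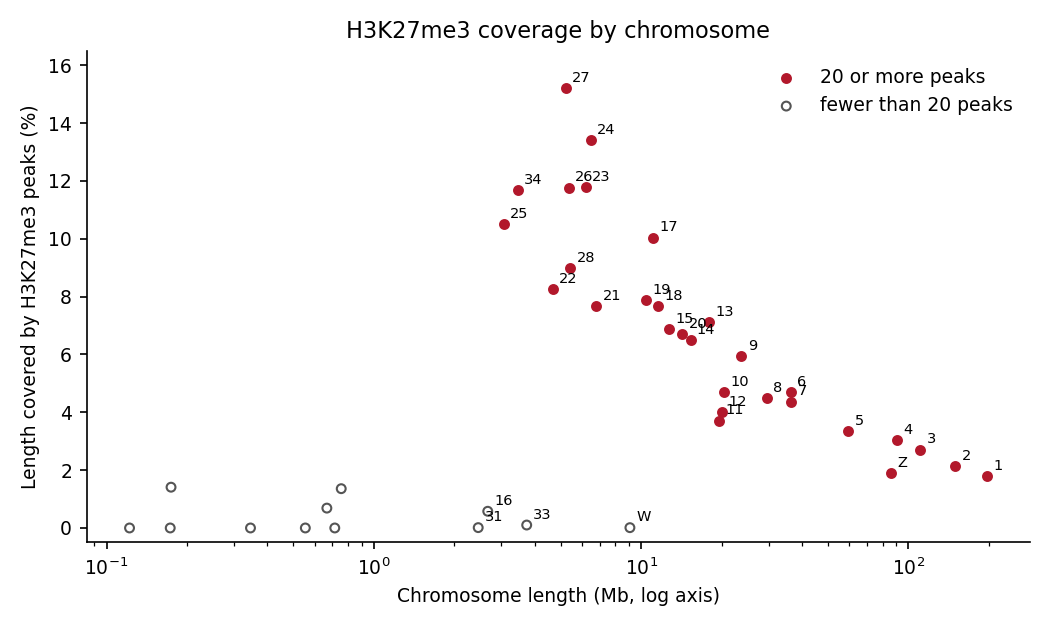
Length covered by H3K27me3 peaks (% of the chromosome) against chromosome length (Mb, log axis), one point for each assembled chromosome, labelled by its name where it has at least 20 peaks or is longer than 2 Mb. Coverage is highest on chromosome 27 (15.2%) and lowest among filled points on chromosome 1 (1.80%), and open points mark the 12 chromosomes with fewer than 20 peaks.

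Many peaks lay close together, so peaks separated by at most 3 kb were joined into domains. This gave 8635 domains, of which 4156 (48.1%) were a single peak. The 1248 domains of at least 10 kb held 42.4% of all peaks and 59.8% of covered sequence. A gene-end peak was part of 806 of these wide domains (64.6%), against 33.7% of the single peaks. The highest fold within a domain had a median of 24.9 in wide domains and 3.84 in single peaks. The wide domains held 9706 peaks. A maximum over several peaks, and the chance that any of them reaches a gene end, rise with the number and width of peaks. Both comparisons therefore depend on how the domains were built. Of the peaks placed away from gene ends, 31.9% belonged to a domain that also held a gene-end peak.

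The widest domains were of different make. The widest was 260 kb, chr27:3330714-3590539, and ran over the HOXB cluster from HOXB13 to HOXB1 and on into SKAP1, an adaptor gene of T cell signalling. Its 33 peaks filled 91.4% of it, and EZH2 peaks covered 62.6%. The HOXA cluster with EVX1 lay in a domain of 163 kb, chr2:32469452-32632318, made of 11 peaks that filled 97.9% of it, with 94.8% under EZH2 peaks. In the HOXC domain, chr34:783210-962303, the EZH2 share was 69.1%. The HOXD cluster with EVX2, in the eleventh widest domain, had an EZH2 share of 81.6%. HOX genes encode the transcription factors that set position along the body axis, and none of their 4 domains overlapped an H3K4me3 peak.

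Other domains of similar width had H3K27me3 with little EZH2. The domain of 208 kb at BMP2, chr3:14602549-14810522, held 58 peaks that filled 83.1% of it, and EZH2 peaks covered 3.17%. BMP2 encodes a bone morphogenetic protein, and its end lay at the margin of the domain, where the highest fold, 27.9, was reached. The domain of EPHB1 and KY, chr9:3351885-3523699, had an EZH2 share of 5.32%, and that of PAX2, chr6:17762330-17909386, had 5.19%. EPHB1 encodes a receptor for ephrins, and PAX2 a regulator of kidney, ear and optic stalk. COL27A1, a fibrillar collagen gene, lay in a domain on chromosome 17 with 3.11% under EZH2, and RNLS in one on chromosome 6 with 0.631%. Between these stood the domain of NKX2-1, NKX2-8 and PAX9, regulators of ventral forebrain, thyroid, lung and pharynx, with 40.1%, and that of LHX3 with GPSM1 and QSOX2, with 19.6%. The map of the HOXB and BMP2 domains shows the contrast.

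**Figure D4:**
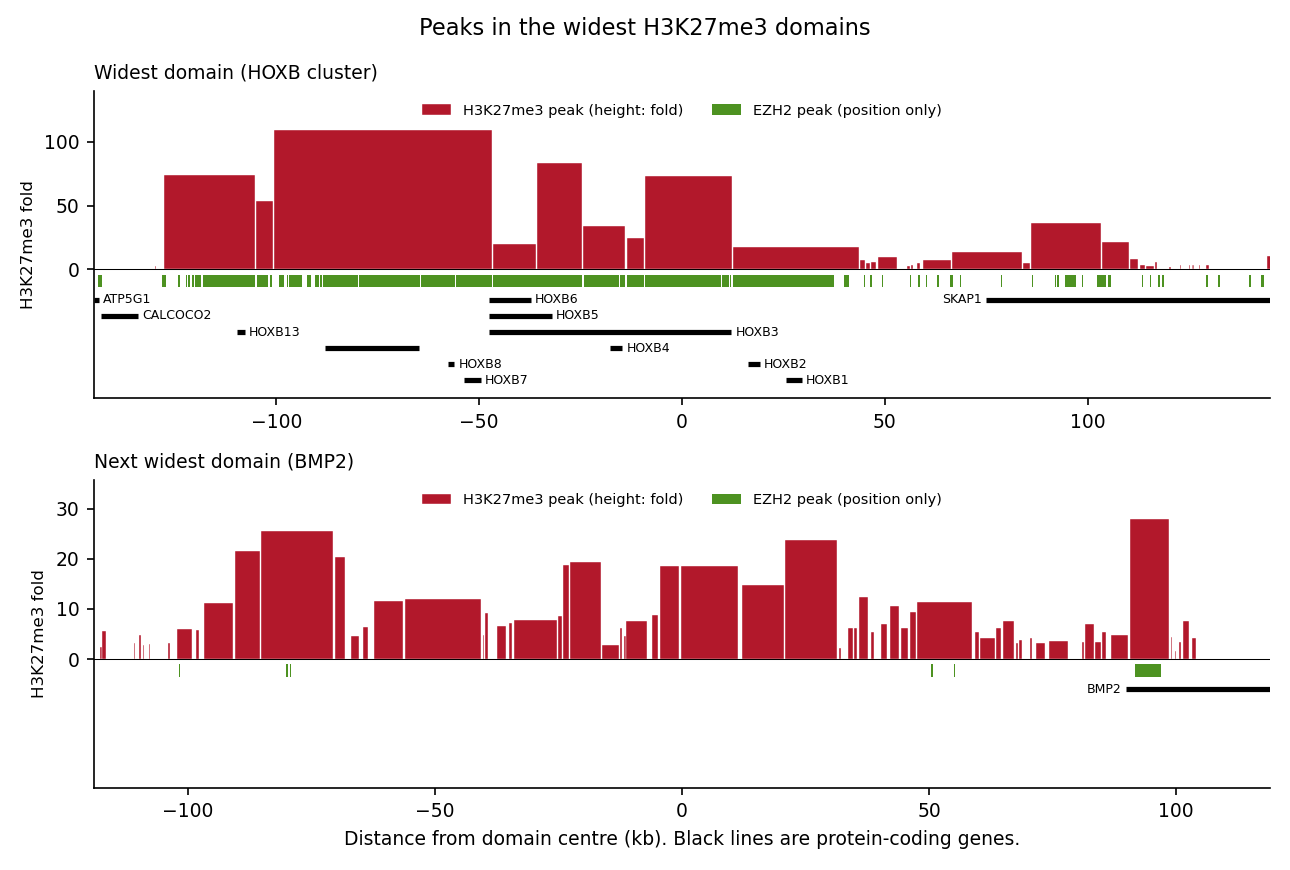
H3K27me3 peaks (bars, height is the fold, width is the peak), positions of EZH2 peaks (green, no height) and protein-coding genes (black lines, unlabelled where there is no symbol) against distance from the domain centre (kb) for the widest domain and the next widest. EZH2 peaks run through most of the HOXB domain (62.6% of it) but cover 3.17% of the BMP2 domain, mostly at the end of BMP2.

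Over all 1248 wide domains the share under EZH2 peaks had a median of 14.7%, with quartiles of 2.18% and 35.6%. It was 23.8% in the wide domains with a gene-end peak and 1.46% in the 442 without one. EZH2 covered under 10% of 172 domains with a gene-end peak and of 345 without one. No EZH2 peak at all was present in 39 and 186 of them. H3K4me3 overlapped 35.9% of the wide domains with a gene-end peak and 6.11% of the others.

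The strongest single peaks were named for each placement. At gene ends the highest folds were 129 at 940 bp from DCST2, 122 at COL14A1, a fibril-associated collagen gene, and 122 at CBLN3, a cerebellin gene of the nervous system. A peak of 119.7 lay at an end of EPHB1 and also overlapped KY, whose nearest end was 2251 bp away. The HOXB peak, chr27:3360104-3413784, was 53681 bp wide with a fold of 109.7 and touched the ends of 6 coding genes. Then came NTS, the neurotensin gene, with 105, DMD, the dystrophin gene, with 104, and the transcription factor gene BCL11A with 103. SHOX, a homeobox gene of the limb skeleton, had 101, and PGR, the progesterone receptor gene, had 92.4.

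Strong peaks were also found away from gene ends. Inside genes the highest fold, 111, fell within INSIG1 but 3299 bp from an end of EN2, an engrailed homeobox gene of the midbrain and hindbrain. MEF2C, a muscle and neural regulator, held a peak of 103, and PAX5, a B cell and midbrain regulator, one of 83.4. The channel genes KCNH2 (92.7), HCN4 (90.1) and CACNA1E (89.8) held strong internal peaks as well. Outside genes the highest fold was 111, at 9936 bp from CPXM1. Peaks of 83.7 and 80.3 lay 2204 bp from RUNX3 and 3654 bp from SIX2, which are developmental transcription factor genes. All 30 of the strongest peaks, 10 per placement and not all named here, overlapped EZH2. The share was 30.2% over all H3K27me3 peaks and 90.8% over those wider than 10 kb.

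The peaks outside protein-coding genes were often far from an end of one, though some of them lay at or in a gene without a protein product. Their median distance to the nearest protein-coding end was 18.02 kb, and the farthest lay 1014 kb away. Those more than 100 kb away made up 12.1%. EZH2 overlapped 23.5% of outside peaks at 1 to 5 kb and 9.16% of those beyond 100 kb, while the median fold was 3.71 and 4.17 in these bins. The strongest of the remote peaks, with a fold of 69.4, lay 151 kb from TRIQK, and another of 46.0 with a width of 29496 bp lay 203 kb from IGFBP5, an insulin-like growth factor binding protein gene. Of the 10 strongest beyond 100 kb from a protein-coding end, all but the peak 215 kb from NEDD1 overlapped EZH2.

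At the level of genes, 4637 of 17839 protein-coding genes (26%) carried H3K27me3 at an end, which is the background for counts of protein-coding genes. Among genes with a symbol the share was 28.4%. Both ends were marked in 1155 genes and a single end in 3482. H3K4me3 was also present at an end of 2132 marked genes (46.0%), and these make up 12% of all genes. The marks were read separately and can lie at different ends or in peaks that do not overlap, here and in the families below. H3K4me3 was found at 57.2% of all genes, EZH2 at 59.3% and JARID2 at 43.2%. The highest fold at a marked gene had a median of 12.5, with quartiles of 4.99 and 26.7.

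Long genes were marked more often, but a smaller share of the marked ones had the mark at both ends. Among genes of at most 5 kb 21.6% were marked, and 58.6% of these at both ends. Among genes over 100 kb 44.7% were marked, and 6.65% of these at both ends. In a short gene the windows of both ends lie close together or overlap, so a single peak can mark both. The shares with both ends marked therefore depend on gene length by construction. The gene was covered over its whole length in 359 cases (2.01%), and at least 50% of it in 1015. The longest wholly covered genes with a symbol were HOXD3 at 27.9 kb, the zinc finger gene ZIC4 at 17.8 kb, SP8 at 13.6 kb, FCN3 at 12.7 kb and OSR1 at 10.1 kb. ZIC4, SP8 and OSR1 encode developmental zinc finger transcription factors. A further 811 genes (4.55%) had a peak inside but none at an end, and 12391 genes (69.5%) had none at either place.

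A few long genes held many peaks in their bodies, most of them weak. OPCML and NTM, neighbouring genes of neural cell adhesion proteins on chromosome 24, held 149 kb and 111 kb of marked sequence. These were 58.5% and 35.5% of their lengths. NFIA, a nuclear factor I transcription factor gene, held 128 kb, and the related zinc finger regulators PRDM16 and MECOM held 109 kb and 92.8 kb. COL27A1 was the most completely covered of the 10 longest-marked genes, with 104 kb or 81.5% of its length. AUTS2 with 100.1 kb and RPS6KA2 with 88.6 kb were not marked at an end. The median fold of the peaks inside these 10 genes was between 3.75 and 5.74, near the median of the whole list.

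Gene families differed widely in how many members were marked. Of 55 families, 46 had a share above the 26% of all protein-coding genes and 9 below it. In 19 families at least 75% of members were marked, and in 8 all of them. Families were picked by symbol with earlier results of these data known, so these counts of families say nothing about gene families in general. The 257 groups by symbol letters, described below, had a median share of 23.1%. The families also differ in gene length. The share was 28.4% among genes with a symbol and 44.7% among genes over 100 kb, so 26% is a low background for families of long genes. Families of few genes have wide limits, and clustered genes share peaks: the 35 HOX genes had 17 distinct strongest peaks.

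**Figure D5:**
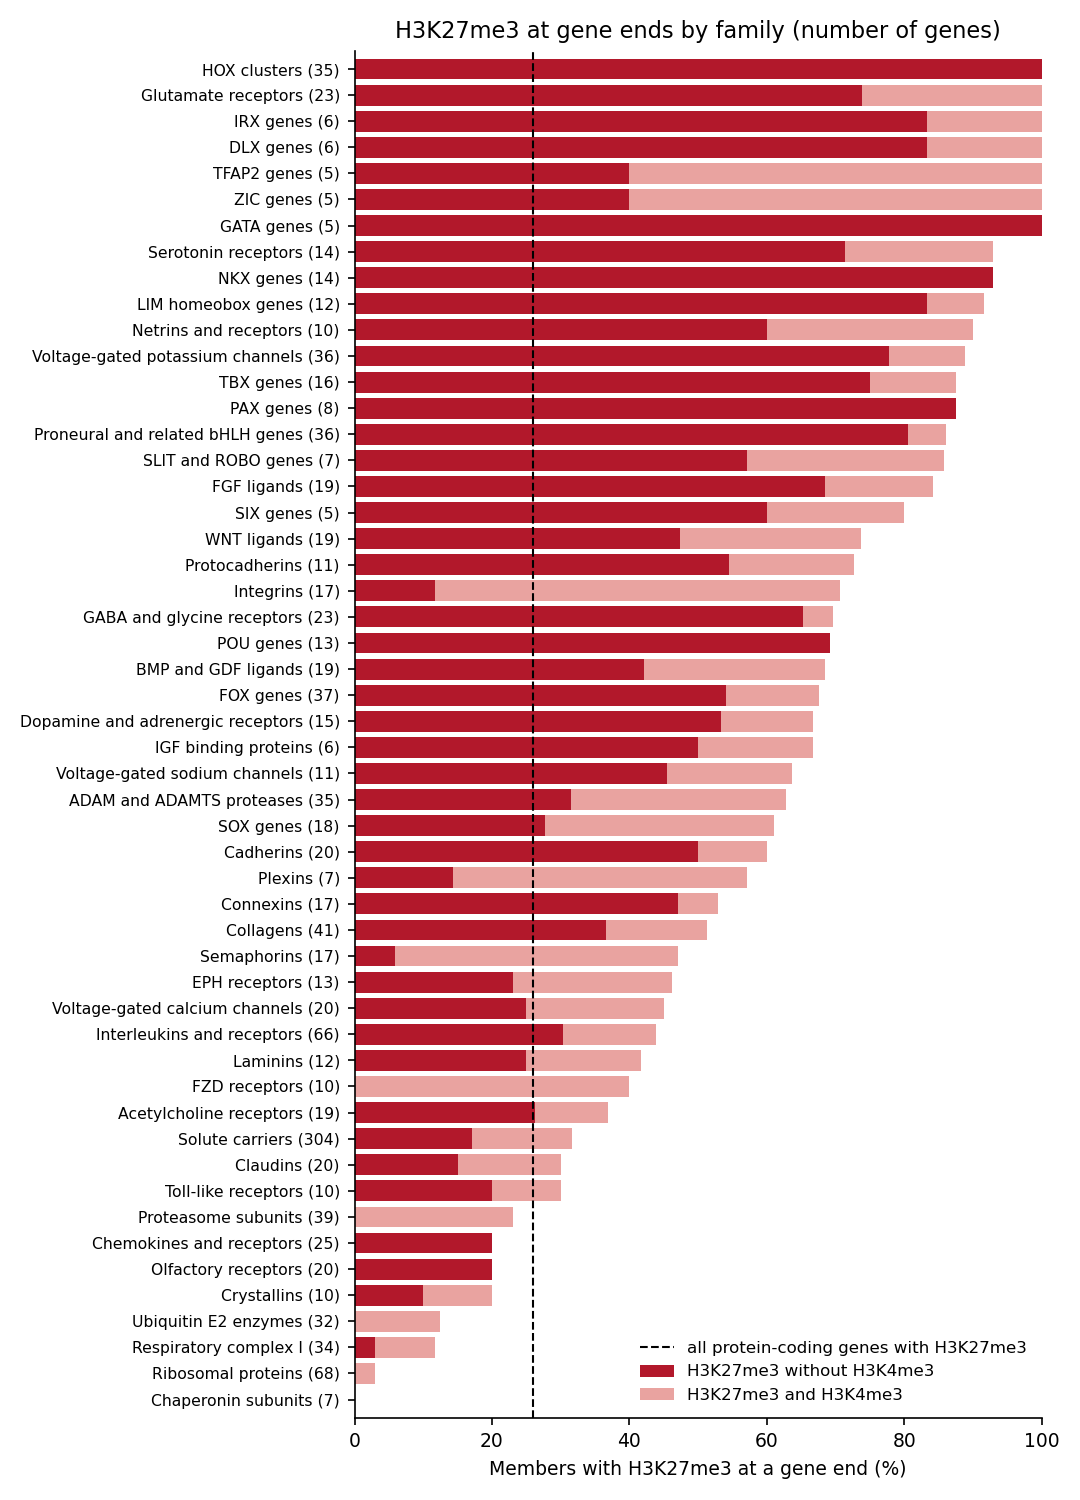
Share of members (%) with H3K27me3 at a gene end in each family of at least 5 genes (number in brackets), split by whether H3K4me3 is also at an end of the gene. The dashed line is the share among all protein-coding genes (26%), and the HOX, glutamate receptor, IRX, DLX, TFAP2, ZIC and GATA families reach 100%.

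Several homeobox families were marked in all or nearly all members. All 35 HOX genes were marked at both ends, none had H3K4me3, and 24 were covered over their whole length. Their folds ran from 8.27 at HOXA10 to 109.7 at HOXB3, HOXB5, HOXB6, HOXB7 and HOXB8, which share a peak. EZH2 and JARID2 were both present at all 35. Both EVX genes, all 6 DLX genes of forebrain, branchial arches and limb, and all 6 IRX genes were marked at both ends. DLX5 and DLX6 shared a fold of 63.6, and IRX5 had the highest fold of its family, 31.4. 13 of 14 NKX genes were marked, led by NKX2-2 with 75.8 and NKX2-4 with 68.9, and 12 were wholly covered. The exception was NKX6-3, which had neither H3K27me3 nor H3K4me3.

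Families with eye regulators had unmarked members among many marked ones. 7 of 8 PAX genes were marked, from PAX4 with 89.9 and PAX3 with 88.9 down to 29.3 at the weakest. PAX6, the regulator of lens and eye, had no H3K27me3 and carried H3K4me3. Of the 5 sine oculis homeobox genes 4 were marked, with SIX6, a gene of the retina and hypothalamus, at 50.3. SIX3, a lens and forebrain regulator, was not marked and had H3K4me3. 11 of 12 LIM homeobox genes were marked, with ISL1 at 76.9 and LHX3 at 70.3. LHX2, a gene of the eye field, had no H3K27me3 at an end but 41.6% of its body was covered. 9 of 13 POU genes were marked, with POU4F3, a hair cell gene, at 66.2 and POU4F2, a retinal ganglion cell gene, at 48.8.

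Other transcription factor families were marked in most members. All 5 GATA genes carried H3K27me3 without H3K4me3, with GATA5 highest at 74.2. All 5 ZIC and all 5 TFAP2 genes were marked, but 3 of each also had H3K4me3, among them TFAP2A (22.4), which acts in surface ectoderm. 14 of 16 TBX genes were marked, with TBX5, a gene of heart and forelimb, at 63.0. 31 of 36 proneural and related bHLH genes were marked, with BHLHE22 at 86.2, the blood regulator TAL1 at 79.8 and OLIG3 at 72.2, and 18 were wholly covered. ATOH7, which specifies retinal ganglion cells, was among the 5 unmarked ones and had no H3K4me3 either.

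FOX and SOX genes were more evenly divided. 25 of 37 FOX genes were marked. FOXB2 had 73.8, and FOXC2 and FOXL1 shared a fold of 64.4. FOXE3 was unmarked and had H3K4me3. 11 of 18 SOX genes were marked, and 6 of these also had H3K4me3 at an end. The endodermal and endothelial gene SOX17 was highest at 48.3. SOX1 and SOX2, which act in the lens and neural tissue, were unmarked and had H3K4me3, whereas the neural crest gene SOX10 had neither mark.

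Among FGF and WNT genes, a larger share of the ligands than of the receptors was marked. The share of FGF receptors, 25% of 4 genes, was near the 26% of all protein-coding genes. The share of frizzled receptors, 40% of 10, was above it, and both families are small. 16 of 19 FGF ligand genes were marked, with FGF5 at 76.7, FGF20 at 68.3 and FGF18 at 54.3. Of 4 FGF receptor genes only FGFR4 was marked, with a fold of 3.02, and FGFR1 and FGFR3 had H3K4me3 without H3K27me3. 14 of 19 WNT genes were marked, with WNT2 at 73.5, WNT1 at 48.3 and WNT3A at 41.6. 4 of 10 frizzled receptor genes were marked, with FZD8 highest at 29.5, and all 10 had H3K4me3. Among BMP and GDF ligand genes 13 of 19 were marked, with GDF11 at 40.6, BMP4 at 39.2 and BMP2 at 27.9.

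Families of axon guidance genes were marked above the share of all genes to different degrees. 9 of 10 genes of netrins and their receptors were marked, with NTNG2 at 45.6, and so were 6 of 7 SLIT and ROBO genes, in which ROBO3 and ROBO4 shared a fold of 45.9. The exceptions, UNC5B and SLIT2, had H3K4me3. 6 of 13 EPH receptor genes were marked (46.2%), with EPHB1 at 119.7. The marked EPH receptor genes had a median length of 180 kb, and their family's share was near the 44.7% of all genes over 100 kb. 8 of 17 semaphorin genes were marked, 7 of them with H3K4me3, and the median fold of the marked ones was 3.64. SEMA3G stood apart in that family with 32.2.

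Most families of neuronal receptors and channels were marked above the share of all genes. All 23 glutamate receptor genes were marked, with GRM5 at 76.6, GRIN2C at 50.7 and GRIK2 at 45.4. 13 of 14 serotonin receptor genes were marked, with HTR1D at 84.7, and 32 of 36 voltage-gated potassium channel genes, with KCNQ1 at 83.0. KCNH2 was among the 4 without a marked end, but 60.0% of its body was covered. 16 of 23 GABA and glycine receptor genes, led by GABRD with 78.0, and 7 of 19 acetylcholine receptor genes, led by CHRNA7 with 36.7, were marked. So were 7 of 11 voltage-gated sodium channel genes and 9 of 20 voltage-gated calcium channel genes (45%). The marked calcium channel genes had a median length of 166 kb, and their family's share was near the 44.7% of all genes over 100 kb. Among marked glutamate receptor genes a median of 3.43% of the gene was covered, and among marked potassium channel genes 7.25%, against 100% among HOX and NKX genes. It was 33.8% among marked dopamine and adrenergic receptor genes, of which 10 of 15 were marked, and 4.67% among GABA and glycine receptor genes. Single members were largely covered, such as HTR1A over its whole length, GRIN2C over 85.1% and GABRD over 77.4%. The families differ in gene length, with medians of 4.01 kb for marked HOX, 2.68 kb for NKX, 25.3 kb for potassium channel and 142 kb for glutamate receptor genes.

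Extracellular matrix and adhesion genes were marked in part. 21 of 41 collagen genes were marked, from COL14A1 with 122 and COL1A1 with 61.2 to 3.14. 12 of 17 integrin genes were marked, of which 10 also had H3K4me3, including ITGA7 (52.9) and ITGA6 (38.4), a laminin receptor gene of epithelia. The peak at ITGA6 covered 3.05% of that gene and was the one that covered its neighbours DLX1 and DLX2 over their whole lengths. 12 of 20 cadherin genes were marked, with the muscle cadherin CDH15 at 64.1. CDH2, the N-cadherin gene expressed in lens, was not marked and had H3K4me3. 9 of 17 connexin genes were marked, with GJB6 at 49.1. GJA3, a connexin gene of lens fibers, and GJA1 were unmarked and had H3K4me3. Of 304 solute carrier genes 96 were marked (31.6%), near the share of all genes, with the vesicular glutamate transporter gene SLC17A6 highest at 83.2.

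In the crystallin family, picked by symbol, 2 of 10 genes carried the mark, near the 26% of all genes. These were CRYBA2 with a fold of 7.19 and CRYBB2 with 3.59, and 6 of 10 had H3K4me3. The delta crystallin genes were not among the 10. With windows of 2.5 kb the share was 40% of crystallin genes, against 30.4% of all protein-coding genes. The peak at CRYBA2 is the one that also marks the microRNA gene MIR375 next to it.

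The share marked was below that of all genes in the housekeeping families, though proteasome genes were close to it, and each marked gene had the mark at a single end. 2 of 68 ribosomal protein genes were marked, RPL38 (59.6) and RPS26 (17.1), while all 68 had H3K4me3. None of 7 chaperonin subunit genes, 4 of 34 respiratory complex I genes, 4 of 32 ubiquitin E2 genes and 9 of 39 proteasome subunit genes were marked. Several of these peaks lay at a neighbour as well, and those neighbours are named after their values were seen. The proteasome gene PSMD14 (21.4) shared its peak of 12773 bp with TBR1, a T-box regulator of cortical neurons, PSMF1 (77.7) with RAD21L1 and TMEM74B, and RPS26 with ERBB3. At 4 of the 9 proteasome genes the H3K27me3 peak overlapped an H3K4me3 peak. The peak at RPL38 overlapped H3K4me3 and lay at no other protein-coding gene.

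Several immune and sensory receptor families, and the claudin family, had a larger share of members with neither mark than genes in general. 5 of 25 chemokine and chemokine receptor genes (20%) had H3K27me3, near the 26% of all protein-coding genes, led by CXCL14 with 76.7. Neither H3K27me3 nor H3K4me3 was present at 76.0% of the family. The share with neither mark was 80.0% of 20 olfactory receptor genes, 65.0% of 20 claudin genes, 60.0% of 10 Toll-like receptor genes and 47.0% of 66 interleukin and interleukin receptor genes. Over all protein-coding genes it was 28.7%. Some of the olfactory receptor genes, such as OR14J1L112, lie on chromosome 33. Of its 193 coding genes 1.04% had H3K27me3 and 1.04% had H3K4me3, so the lack of both marks there is not particular to the family. Interleukin and interleukin receptor genes with H3K27me3 numbered 29 (43.9%), above the 26% of all protein-coding genes. IL7 had 58.2 and IL6 had 30.98.

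Genes of the Polycomb machinery were themselves marked in part. Of 18 genes of PRC2 and PRC1, 8 carried H3K27me3 and 7 of these had H3K4me3 too. BMI1, a PRC1 gene, had 27.7 and AEBP2 had 14.9. EZH2, EED and JARID2 were unmarked. None of 7 genes of H3K27 demethylases and H3K4 enzymes was marked, and all had H3K4me3.

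Genes were also grouped by the letters of their symbols, without regard to function. Of 257 such stems with at least 8 genes, the median share marked was 23.1%. Only HOXA, HOXB and HOXD were marked in every gene. In 28 stems, 363 genes in all, no gene was marked, and 278 of these genes had H3K4me3. The largest were the mitochondrial ribosomal protein genes (MRPL, 46 genes), ARL with 25, METTL with 22, GTF, general transcription factor genes, with 20, and COX, cytochrome oxidase genes, with 18. In these 5 stems 45, 22, 17, 18 and 17 genes had H3K4me3. Other stems of the 28 had hardly any of either mark, such as MYH, myosin heavy chain genes, with H3K4me3 at 1 of 14, and AvBD, beta-defensin genes, at none of 13.

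Genes without a protein product were marked less often than the 26% of protein-coding genes. The windows at both ends of a very short gene, such as a microRNA gene, nearly coincide. Less sequence was searched there than at a long gene, so these shares are not like measures. Of 5741 long non-coding RNA genes 15.7% were marked, and 11.7% of those outside protein-coding genes. Of 799 microRNA genes 117 were marked (14.6%), at 91 distinct peaks, and 78 of them had EZH2 at an end. No snoRNA, snRNA or rRNA gene was marked, of 185, 67 and 92, and 14 of 274 tRNA genes were. How well reads can be placed on these genes was not tested.

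The marked microRNA genes with the highest folds were read next. MIR196A1 lay in the HOXB peak of 109.7. MIR6696 (61.5) lay in COL27A1, and MIR1680 (61.3) lay 30859 bp from NR2F2, a nuclear receptor gene. MIR6546 (60.9) lay within ACVR1C. MIR9-3 and MIR9B-1 (59.0), at the same place, and MIR137 (56.1) followed. The cluster of MIR449A, MIR449B, MIR449C and MIR449D shared a peak of 54.8, and in other vertebrates it acts in multiciliated cells. MIR34B and MIR34C, which were listed for the same cells, were unmarked.

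MicroRNA genes known for a tissue were then read from a list of families chosen after the values were seen. The share to set beside these counts is the 14.6% of all 799 microRNA genes. Of 18 neural entries 16 were marked, with folds for example of 37.0 at MIR9-1, 15.5 at MIR9-2, 40.2 at MIR9-4, 38.2 at MIR124-3, 43.6 at MIR129-1 and 28.1 at MIR219A1. MIR128-1 and MIR128-2 were the unmarked ones. All 5 entries from the HOX clusters were marked, among them MIR10B (52.8), MIR196A2 (49.2), MIR10A (34.2) and MIR196B (8.27). The microRNA genes of lens, retina and pigment cells, MIR184, MIR184B, MIR204-1, MIR204-2 and MIR211, were unmarked, and MIR184, MIR184B and MIR211 had H3K4me3 nearby. Among 9 epithelial entries MIR203A and MIR203B were marked at a shared peak of 16.4. Of 10 muscle entries 3 were marked, MIR1B and MIR133C at a shared peak of 21.2 and MIR1C with 4.63. Of 5 endocrine entries 2 were marked, MIR375 with 7.19 and MIR7-2 with 3.02, whereas MIR7-1, MIR7-3 and MIR7B were not. None of 3 sensory entries, a cluster with MIR183, and none of 4 liver entries was marked. Neighbouring entries share peaks and are not independent. Some neural entries lie at the same place, such as MIR9-2 with MIR9B-2 and MIR124A with MIR124C, so the entries outnumber the places.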

How the data were processed

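Per the submitters' processing notes, the tools included MACS2 2.2.7.1, Bowtie2 2.4.1 and Trim Galore 0.6.4, and the build was GRCg7b. The sources used here do not say whether libraries were pooled or IgG served as control. The fold that the authors deposited for a peak is a ratio over the authors' peak caller's background, and significance is the deposited −log10 q-value. The deposited score is 10 times that value and was not used. The lists reach down to a q-value of 0.05. Depth per library is unknown, and no interval from counts could be given.

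Gene positions were read from a RefSeq table of the same build, without strand. A gene was marked when a peak came within 1 kb of either end, so a 3′ end or a neighbour can be meant. Chromosome lengths are the largest coordinate among peaks and genes. Lists overlapped where peaks shared at least 1 bp, and peaks were joined across gaps of up to 3 kb. Placement, joining and overlap were checked on simulated regions. Python 3.11.15 with pandas 2.3.3 was used.

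The members, the 55 families and 9 marker lists were chosen with earlier results of these data known. Of 82 marker names 74 matched a symbol. Named genes are the strongest peaks, widest domains, longest-marked bodies and, per family or list, up to 6 marked genes by fold and 6 unmarked ones in alphabetical order. Some name patterns of families were corrected after the files were read. The weakest HOX gene, neighbours of housekeeping genes and the microRNA tissue list were chosen after their values were seen. Genes lacking a symbol enter the counts only, and no sequences were used. Some genes that these rules pick are left out of the text, and the counts include them.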

Additional observations from a re-analysis of the deposited data

How the results depend on the processing

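Windows of 500 bp and 2.5 kb around gene ends placed 17.5% and 29.3% of peaks at gene ends, 40.5% and 33.8% in gene bodies and 42.0% and 36.9% outside. Peaks with a −log10 q-value of at least 5 gave 26.3%, 35.4% and 38.3% in these classes, and the stronger part of the list, split at the median −log10 q-value, gave 32.9%, 32.7% and 34.4%. Where at least 50% of a peak had to lie in the class, the shares were 12.5%, 44.1% and 43.4%, and 2497 protein-coding genes were marked instead of 4637. When every gene counted, 30.2% of peaks lay outside genes. Without joining, 465 peaks reached 10 kb, against 1248 joined domains. Their share of covered sequence was 43.7% with gaps of 1 kb, 73.7% with gaps of 10 kb and 56.8% with the stricter q-value. With an overlap of 50% of the smaller peak, 7.204% of H3K27me3 peaks overlapped H3K4me3, 28.9% EZH2, 21.5% SUZ12, 24.1% JARID2 and 23.7% AEBP2. With stricter q-values in both lists these shares were 9.47%, 35.7%, 20.2%, 22.6% and 17.1%. Of 192 shares of families and marker lists under alternatives, 188 stayed within their 95% binomial interval. These intervals treat genes as independent and are wide for small sets, for example 6.76% to 93.2% for ephrins. A shift from 50% to 25% of ephrin genes, or from 20% to 40% of crystallin genes, thus stayed within them. The count of 188 is therefore not a measure of robustness for small sets. Solute carriers reached 37.5% with windows of 2.5 kb, respiratory complex I fell to 2.94% with 500 bp, and the marked pigment epithelium gene was lost with 500 bp and with the stricter q-value. The cause of these shifts was not tested beyond the construction of each setting. The annotated start alone and CpG content were not run, because no strand or sequence was used here. No paired analysis was possible because each antibody has a single list without values per library. Depth is unknown, so an absent peak is a gene without a called peak, not a gene without the mark.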
